A study of Mus musculus with 16 samples.

Results

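Transcripts of the mouse class I antigen-presenting molecule were followed in MC38 cells: the heavy chains H2-K1, H2-D1, H2-Q4, H2-Q6, H2-Q7, H2-T22, H2-T23 and H2-M3, and the light chain B2m. They were taken by gene symbol from the deposited count table, and all 9 of them were found among its 55401 genes. All 9 passed the filter on low counts, which left 18969 genes to test. MC38 is a mouse colon adenocarcinoma line, and the study asked how YTHDF2, a protein that reads the RNA modification N6-methyladenosine (m6A), acts inside tumour cells in immune evasion. Its 16 libraries were 3 m6A immunoprecipitations and 3 inputs from each genotype, WT and Ythdf2-KO, with 2 YTHDF2 RNA immunoprecipitations (RIP) and 2 RIP inputs from cells labelled WT. Both genotypes grew in the same serum-supplemented medium with no treatment named, and the titles tag WT as gNC and Ythdf2-KO as gY2. The labels do not say whether a genotype is 1 clone or a pool, or whether replicates came from separate cultures, so the p-values measure only the spread between these libraries, which may be technical.

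A class I molecule is a membrane-bound heavy chain held by the small soluble protein beta-2-microglobulin, and it shows peptides made by the proteasome to CD8 T cells. H2-K1 and H2-D1 encode the classical heavy chains, which are polymorphic and expressed by nearly all nucleated cells, and the Q, T and M genes encode nonclassical chains with narrower roles. YTHDF2 shortens the life of many m6A-marked transcripts by recruiting deadenylases, and the m6A consensus, DRACH, has A, G or T, then A or G, then A and C, then A, C or T.

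A few stretches of class I message carry the peak findings given further on, and they are shown with every DRACH match in capitals. The H2-D1 stretch and the longer H2-K1 stretch lay in WT m6A peaks with no Ythdf2-KO counterpart; the other 2 lay under m6A peaks of both genotypes. All are coding sequence read from GENCODE M21 transcripts (GRCm38, the assembly of mm10), 5′ to 3′.
H2-D1, chr17:35263402-35263611, plus strand: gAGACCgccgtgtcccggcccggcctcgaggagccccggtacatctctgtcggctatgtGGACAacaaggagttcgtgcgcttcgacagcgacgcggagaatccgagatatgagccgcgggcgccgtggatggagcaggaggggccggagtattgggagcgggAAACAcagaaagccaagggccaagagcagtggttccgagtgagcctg
H2-K1, chr17:33999288-33999546, minus strand: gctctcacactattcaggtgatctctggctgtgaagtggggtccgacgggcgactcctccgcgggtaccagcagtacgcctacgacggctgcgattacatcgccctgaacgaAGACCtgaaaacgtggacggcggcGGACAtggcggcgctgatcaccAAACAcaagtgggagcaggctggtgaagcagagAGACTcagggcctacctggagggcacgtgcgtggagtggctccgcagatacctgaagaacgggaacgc
H2-K1, chr17:33997493-33997560, minus strand: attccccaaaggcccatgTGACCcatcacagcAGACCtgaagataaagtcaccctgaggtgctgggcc
B2m, chr2:122147775-122150991, plus strand, joined over an intron: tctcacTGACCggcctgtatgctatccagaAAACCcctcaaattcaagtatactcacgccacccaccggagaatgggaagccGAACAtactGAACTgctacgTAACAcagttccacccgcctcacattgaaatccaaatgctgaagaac
The H2-D1 stretch held 3 matches in 210 bases and the longer H2-K1 stretch 4 in 259. The shorter H2-K1 stretch held 2 in 68 bases and the B2m stretch 5 in 149. Windows of the same lengths on the members' transcripts hold at least 1 match in 99.0%, 99.9%, 72.4% and 94.1% of cases, respectively, so a match in them is common.

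The count table covered the 6 input libraries, with 45441281 to 50959555 counts each. Levels are in CPM, counts scaled to a common library size by the TMM method. For a count of 0, the upper limit at 95% confidence is about 3 counts, or 0.0582 to 0.0652 CPM, for counting error only. Ythdf2 itself measured 55.6, 68.6 and 59.7 CPM in WT and 67.9, 59.8 and 61.5 CPM in Ythdf2-KO replicates 1 to 3 (log2 fold change 0.04, adjusted p = 0.809 in edgeR), so whole-gene reads did not check the knockout and the libraries are called by their labels. Ythdf2-KO replicate 1 stood apart from the other 2: the chi-square per degree of freedom over genes was 45.6 and 45.8 against Ythdf2-KO replicates 2 and 3. Against WT replicates 1, 2 and 3 it was 19.8, 30.6 and 31.1. WT replicate 1 was itself at 19.9 and 18.7 against WT replicates 2 and 3, beside 6.45 between those. Results that rest on Ythdf2-KO replicate 1 are given with and without it. Among markers of the labelled tissue, 2 of 8 colon epithelium genes passed the filter, and Epcam and Krt18 had no count in any library. None of 8 leukocyte markers passed, and their summed level was 0 to 0.304 CPM in WT and 0.0426 to 0.386 CPM in Ythdf2-KO libraries. Of 7 markers of class II and professional antigen-presenting cells, 5 passed and 0 were called higher or lower, beside 2.99% and 1.54% of all tested genes. Their summed level was 37.4 to 41.5 CPM in WT and 36.8 to 51.5 CPM in Ythdf2-KO, with H2-DMb1 at a mean of 27.8 CPM in WT. All 4 fibroblast markers passed, with a summed level of 252 to 262 CPM in WT and 238 to 251 CPM in Ythdf2-KO, and 2 of 3 endothelium markers, at 0.978 to 1.44 and 1.32 to 2.68 CPM.

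Across genotypes, 568 genes rose (2.99% of those tested) and 293 fell (1.54%) in Ythdf2-KO libraries, at an adjusted p under 0.05 in edgeR's quasi-likelihood test with Benjamini-Hochberg adjustment. Of the 9 members, 0 rose and 1 fell, H2-M3. DESeq2 also called 0 higher and 1 lower, H2-M3, against 12.9% of the genes it tested called higher and 6.83% called lower. The members' median log2 fold change was 0.07, beside -0.0055 over all tested genes. The 3 Ythdf2-KO libraries lay above all 3 WT libraries in 0 members (17.7% of all tested genes) and below them in 2, H2-T23 and H2-M3 (16.2% of all tested genes). In bulk RNA, fewer cells with a transcript and less of it per cell cannot be told apart.

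**Figure D1:**
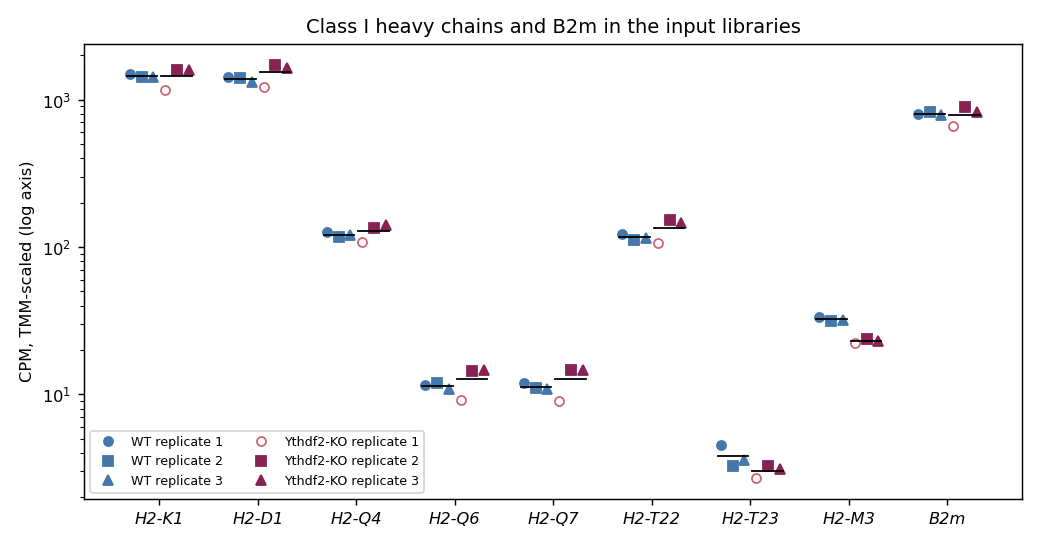
Level of each member in the 6 input libraries, in TMM-scaled CPM on a log axis; points are libraries and horizontal bars are group means. H2-K1, H2-D1 and B2m lie between 658 and 1728 CPM, and the WT and Ythdf2-KO points separate for H2-T23 and H2-M3.

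The classical heavy chains were among the most abundant messages of these cells. By mean CPM in WT, H2-K1 ranked 31 and H2-D1 ranked 37 of 18969 tested genes. H2-K1 (chromosome 17, 33996017 to 34000347) measured 1494, 1426 and 1434 CPM in WT replicates 1 to 3 and 1169, 1592 and 1587 CPM in Ythdf2-KO replicates 1 to 3. The Ythdf2-KO values surrounded the WT ones, with replicate 1 below them all and replicates 2 and 3 above them all. The log2 fold change was -0.0017 (SE 0.12, adjusted p = 0.994 in edgeR), and 2 SE on either side spanned -0.24 to 0.24. H2-D1 (chromosome 17, 35262730 to 35267499) measured 1425, 1406 and 1325 CPM in WT and 1210, 1728 and 1651 CPM in Ythdf2-KO. It had the same arrangement, and the log2 fold change of 0.14 (SE 0.13, adjusted p = 0.501) did not pass the test.

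H2-K1 and H2-D1 together held 90.5% ± 0.243 (SD, n = 3) of the summed heavy chain CPM in WT and 90.4% ± 0.228 (SD, n = 3) in Ythdf2-KO. That sum over the 8 heavy chain members was 3230, 3120 and 3051 CPM in WT and 2638, 3663 and 3579 CPM in Ythdf2-KO. The groups overlapped, and their means were 3134 ± 90.3 and 3293 ± 569 CPM (SD, n = 3 each), a ratio of 1.05. Heavy chains took 0.309% to 0.336% of all counts in WT libraries and 0.27% to 0.354% in Ythdf2-KO libraries. The ratio of H2-K1 to H2-D1 CPM was 1.05, 1.01 and 1.08 in the WT libraries, against 0.966, 0.922 and 0.962 in those of Ythdf2-KO. Every Ythdf2-KO ratio was below every WT ratio, a comparison chosen after its values were seen and given with no test.

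The Q-region genes encode nonclassical chains, and H2-Q6 and H2-Q7 both encode forms of Qa-2. H2-Q4 (chromosome 17, 35379617 to 35385290) measured 126.9, 116.8 and 120.2 CPM in WT and 108.1, 134.7 and 140.1 CPM in Ythdf2-KO. The groups overlapped and the log2 fold change was 0.07 (SE 0.11, adjusted p = 0.678). H2-Q6 (chromosome 17, 35424850 to 35430055) measured 11.7, 12.0 and 10.8 CPM in WT and 9.13, 14.3 and 14.7 CPM in Ythdf2-KO. H2-Q7 (chromosome 17, 35439155 to 35443773) measured 11.9, 11.1 and 10.8 CPM in WT and 9.09, 14.7 and 14.7 CPM in Ythdf2-KO. Both had 1 Ythdf2-KO value below and 2 above the WT range, with log2 fold changes of 0.15 (adjusted p = 0.646) and 0.18 (adjusted p = 0.565).

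The T-region chains are monitored by lymphocytes other than conventional CD8 T cells. H2-T22 is a ligand of gamma delta T cell receptors that reaches the surface without a bound peptide. H2-T22 (chromosome 17, 36037128 to 36042747) measured 122.9, 112.1 and 114.5 CPM in WT and 107.0, 151.6 and 144.9 CPM in Ythdf2-KO. Its groups overlapped, and its log2 fold change of 0.21 (SE 0.13, adjusted p = 0.329), the highest of the 9 members, did not pass. H2-T23 encodes Qa-1, which presents leader peptides of classical class I chains to receptors of natural killer cells. H2-T23 (chromosome 17, 36029773 to 36032855) measured 4.51, 3.28 and 3.61 CPM in WT and 2.70, 3.25 and 3.11 CPM in Ythdf2-KO. It was the least abundant member, at 139 to 213 counts a library. The groups did not overlap, but WT replicate 2 and Ythdf2-KO replicate 2 nearly met, and the log2 fold change of -0.33 (SE 0.19, adjusted p = 0.276) did not pass.

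H2-M3 presents N-formylated peptides of bacterial or mitochondrial origin. H2-M3 (chromosome 17, 37270220 to 37274484) measured 33.7, 31.5 and 32.1 CPM in WT and 22.4, 23.8 and 23.1 CPM in Ythdf2-KO. The groups were far apart relative to their spread, at 32.5 ± 1.15 and 23.1 ± 0.699 CPM (SD, n = 3 each). The log2 fold change was -0.49 (SE 0.083, adjusted p = 0.0341 in edgeR), a level 0.713 times that of WT. The adjusted p was 0.00344 without Ythdf2-KO replicate 1, 0.068, 0.153 and 0.176 without WT replicates 1, 2 and 3, and 0.14 and 0.154 without Ythdf2-KO replicates 2 and 3. The log2 fold change stayed between -0.51 and -0.47 in these 6 refits, but the call held in 1 of them.

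B2m, the light chain that every listed heavy chain shares, lies on chromosome 2 (122147686 to 122153083) and ranked 110 of 18969 tested genes in WT. It measured 801, 827 and 788 CPM in WT and 658, 893 and 825 CPM in Ythdf2-KO. Ythdf2-KO replicate 1 was the lowest library and replicate 2 the highest, while Ythdf2-KO replicate 3 fell among the WT values. The log2 fold change was -0.02 (SE 0.11, adjusted p = 0.908), and 2 SE on either side spanned -0.25 to 0.20.

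Levels of different genes were compared per kilobase of the longest coding transcript, in CPM per kb. In WT, B2m averaged 936 over libraries at 931, 961 and 916, H2-K1 was at 896 ± 22.7 and H2-D1 at 659 ± 25.4 (SD, n = 3 each). B2m and H2-K1 differed by less than their ranges over the 6 libraries, which were 765 to 1039 and 722 to 984 CPM per kb. Library by library, H2-K1 was below B2m in WT, at 923, 881 and 886, but above it in Ythdf2-KO replicate 3, at 980 against 959. H2-Q4 at 67.6 ± 2.87 and H2-T22 at 66.1 ± 3.21 CPM per kb did not differ beyond their spread. H2-Q4 was the higher of these in each WT library and H2-T22 in each Ythdf2-KO library. H2-M3 followed at 22.6 ± 0.797, H2-Q7 at 7.54 ± 0.363, H2-Q6 at 5.51 ± 0.288 and H2-T23 at 2.58 ± 0.431 CPM per kb. The order and the distances between members depend on the length used. Over all annotated exons H2-D1 (537 CPM per kb in WT) was above H2-K1 (494 CPM per kb), and B2m, at 936, was above both. By that length H2-Q4 at 46.7 ± 1.98 was above H2-T22 at 34.1 ± 1.66 CPM per kb in WT. H2-Q6 at 5.51 was then above H2-Q7 at 2.64.

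The heavy chains are paralogs, so some reads can be assigned to more than 1 gene, inside or outside the list. The sources used here do not say how the authors counted such reads. Exact copies of each 100-base window of a member's transcript were sought on either strand in transcripts of other genes. The share of windows found was 0% for H2-K1, H2-M3 and B2m and 4.64% for H2-D1. It was 7.28% for H2-T23, 13.0% for H2-Q6, 13.9% for H2-Q4, 14.2% for H2-T22 and 21.9% for H2-Q7. For H2-Q4, 188 of the 236 windows found were in Gm11131, a gene on the opposite strand. Other genes outside the list held most for H2-D1 (H2-Q1, 85 windows), H2-T22 (H2-T10, 163) and H2-T23 (Gm7030, 61). H2-Q6 and H2-Q7 share most with each other, with coding sequences 95.4% identical, and their separate values are uncertain. Their summed level was 23.5, 23.1 and 21.7 CPM in WT and 18.2, 29.0 and 29.4 CPM in Ythdf2-KO, the same arrangement as in each. H2-Q8 and H2-Q9, the other Qa-2 genes, were not analysed here. H2-K1 and H2-D1 were 91.5% identical in coding sequence, and H2-K1 and H2-M3 73.8%. These identities are over aligned bases with gaps left out, so the lower values say little about likeness. B2m, which is no heavy chain, reached 76.8% to H2-K1 over 353 aligned bases. H2-Q4 overlaps the antisense gene Gm11131 and H2-T22 the antisense gene A930015D03Rik, and without a stated strand setting their reads cannot be told apart from those of the partners.

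The position of Ythdf2-KO replicate 1 was common to the whole group. In all 9 members it was the lowest of the 6 libraries, a position it held in 14.1% of all tested genes. In 6 members, H2-K1, H2-D1, H2-Q4, H2-Q6, H2-Q7 and H2-T22, it was the lowest while Ythdf2-KO replicates 2 and 3 were the 2 highest, an arrangement found in 4.34% of all tested genes. As a percent of each gene's WT mean, the members measured 69.1 to 91.9% in Ythdf2-KO replicate 1 (median 80.6%). They measured 73.4 to 130.2% in replicate 2 (median 111.0%) and 71.3 to 130.6% in replicate 3 (median 115.5%).

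**Figure D2:**
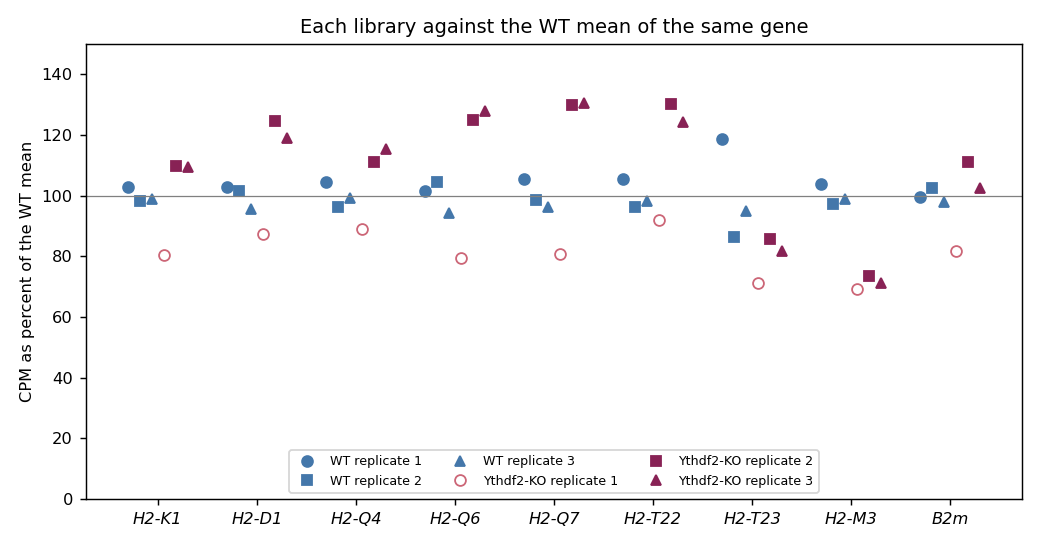
CPM of each member in each input library as a percent of the mean of the 3 WT libraries of that gene. The open circles, Ythdf2-KO replicate 1, lie at 69.1 to 91.9% and are the lowest point of every gene.

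Without Ythdf2-KO replicate 1, 4 members rose and 1 fell. In that fit of 5 libraries 19.3% of 19551 tested genes rose and 16.1% fell. H2-D1 then had a log2 fold change of 0.29 (adjusted p = 0.014 in edgeR), H2-Q6 of 0.34 (adjusted p = 0.0361), H2-Q7 of 0.38 (adjusted p = 0.022) and H2-T22 of 0.35 (adjusted p = 0.00575), and H2-M3 was lower with -0.47 (adjusted p = 0.00344). H2-K1, at 0.13 (adjusted p = 0.139), H2-Q4, at 0.18 (adjusted p = 0.0611), B2m, at 0.09 (adjusted p = 0.328), and H2-T23, at -0.25 (adjusted p = 0.314), did not pass. Without any one of the other 5 libraries, 0 members were called in either direction.

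Levels of most members also went together over the 6 libraries, given here as a description with no test, since the points share library and depth. Pearson's r of log2 CPM was 0.89 between H2-K1 and H2-D1, 0.94 between H2-K1 and B2m, and 0.99 between H2-D1 and H2-Q7. H2-M3 had lower r, of 0.16 to H2-K1, -0.26 to H2-D1 and 0.22 to B2m, and so did H2-T23, of 0.47 to H2-K1, 0.11 to H2-D1 and 0.40 to B2m. H2-M3 and H2-T23 were nearest to each other, at 0.81. Among other genes of at least 10 CPM, the 5 nearest H2-K1 were Mplkip (r = 0.999), A730017L22Rik, Selenbp1, Stbd1 and Dpm1 (r = 0.986). The 5 nearest H2-D1 were Dclk1 (r = 0.997), Tnfrsf9, Gbe1, Pstk and Pla2g12a (r = 0.990), and the 5 nearest B2m were Reep5 (r = 0.991), Rab10, Smim14, Traf3ip1 and Prl2c2 (r = 0.975). No gene was among the 5 nearest of more than 1 of these 3 members.

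Class I promoters are known for an upstream kappaB element bound by NF-kB, an interferon-stimulated response element bound by IRF proteins, and an SXY module that holds a CRE-like core and a Y box and recruits NLRC5. The windows below lie upstream of the gene as annotated and end at its start. They come from the RefSeq promoter table (GRCm38.p6), in which all 9 members were found, and are shown for a classical chain, a Qa-2 chain, the member called lower and the light chain. Capitals mark GGGGATTCC (kappaB), GAANNGAAA (an IRF element), TGACG (CRE core) and CCAAT (Y box) on either strand.
H2-K1, chr17:34000348-34000547, minus strand: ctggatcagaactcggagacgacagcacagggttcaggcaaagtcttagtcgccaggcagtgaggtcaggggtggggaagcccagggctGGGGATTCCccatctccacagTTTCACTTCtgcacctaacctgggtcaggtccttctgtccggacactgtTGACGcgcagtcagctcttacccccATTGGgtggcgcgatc
H2-Q7, chr17:35438955-35439154, plus strand: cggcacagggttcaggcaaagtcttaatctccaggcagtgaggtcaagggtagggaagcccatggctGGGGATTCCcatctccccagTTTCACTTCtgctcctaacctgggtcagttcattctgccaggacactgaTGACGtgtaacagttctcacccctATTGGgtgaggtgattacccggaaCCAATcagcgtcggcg
H2-M3, chr17:37270034-37270219, plus strand: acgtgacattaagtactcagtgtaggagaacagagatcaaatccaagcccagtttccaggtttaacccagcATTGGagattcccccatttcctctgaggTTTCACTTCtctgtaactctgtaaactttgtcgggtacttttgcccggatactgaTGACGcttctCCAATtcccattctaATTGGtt
B2m, chr2:122147487-122147685, plus strand: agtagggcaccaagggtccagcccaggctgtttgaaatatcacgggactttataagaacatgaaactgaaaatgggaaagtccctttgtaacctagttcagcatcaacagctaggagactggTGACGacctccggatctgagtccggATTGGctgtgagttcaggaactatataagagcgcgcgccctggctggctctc
In the 250 bases before the RefSeq start, GGGGATTCC was found in 4 of 9 members, H2-K1, H2-D1, H2-Q6 and H2-Q7, and in 0.213% of 32851 promoters. GAANNGAAA was found in 6 members, these 4 with H2-Q4 and H2-M3, and in 6.31% of promoters. TGACG was found in 7 members, all but H2-Q6 and H2-T23, and in 17.8% of promoters. CCAAT was found in all 9 members and in 33.8% of promoters. These matches describe the letters only, and promoters of paralogs share their descent. Only these exact letters were sought, so a member without a match may still hold a variant of the element. The B2m window, for example, holds gaaactgaaa, which is near GAANNGAAA but was not counted.

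The transcription factors and interferon gamma signalling genes that act on class I promoters were listed as 18 genes. Of these, 0 rose and 0 fell, beside 2.99% and 1.54% of all tested genes. Their median log2 fold change was 0.08, beside -0.0055 over all tested genes. Nlrc5, the class I transactivator, measured 89.7, 72.4 and 73.4 CPM in WT and 64.0, 45.6 and 50.7 CPM in Ythdf2-KO. Its groups did not overlap, and its log2 fold change of -0.55 (SE 0.14, adjusted p = 0.066) did not pass the test. Irf1 measured 117.6, 146.3 and 141.3 CPM in WT and 83.4, 142.2 and 136.6 CPM in Ythdf2-KO, with replicate 1 the lowest library as in the members, and a log2 fold change of -0.16 (adjusted p = 0.623). Without Ythdf2-KO replicate 1, 8 genes of this list rose and 5 fell, beside 19.3% and 16.1% of all genes tested in that fit, among them Nlrc5 at -0.70 (adjusted p = 0.00255).

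Several genes that make, carry and load the peptides of class I molecules fell in Ythdf2-KO libraries. Of 13 listed genes, 1 rose, 6 fell and 6 did not pass, beside 2.99% higher and 1.54% lower of all tested genes. Their median log2 fold change was -0.39, beside -0.0055 over all tested genes; earlier results on this pathway were known when the list was chosen. Tap2, which with Tap1 forms the transporter of peptides into the endoplasmic reticulum, measured 91.3, 84.6 and 87.0 CPM in WT and 59.7, 50.6 and 55.6 CPM in Ythdf2-KO. Its groups were well separated, with a log2 fold change of -0.66 (SE 0.082, adjusted p = 0.0209 in edgeR). Tap1, its partner, did not pass at -0.14 (adjusted p = 0.34), nor did Tapbp (tapasin), which bridges heavy chain and transporter, at -0.05 (adjusted p = 0.8). Tapbpl (TAPBPR), a peptide editor, was lower, with a log2 fold change of -0.77 (adjusted p = 0.0355), and Erap1, which trims peptides in the endoplasmic reticulum, was lower at -0.75 (adjusted p = 0.0271). The immunoproteasome subunit Psmb10 was lower at -0.48 (adjusted p = 0.0355), and the proteasome activator subunits Psme1 at -0.39 (adjusted p = 0.0333) and Psme2 at -0.42 (adjusted p = 0.0310). Dcn, a fibroblast marker and the 1 marker of any cell type called, also fell, from 58.5 ± 8.82 to 33.2 ± 4.77 CPM (SD, n = 3 each), with a log2 fold change of -0.82 (adjusted p = 0.0355); its part in the result was not tested.

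The 1 gene of the list that rose was Calr (calreticulin), a chaperone of newly made heavy chains. It measured 1097, 1026 and 1002 CPM in WT and 1397, 1702 and 1748 CPM in Ythdf2-KO, with every Ythdf2-KO library above every WT library. Its log2 fold change was 0.63 (SE 0.097, adjusted p = 0.0293 in edgeR). Without Ythdf2-KO replicate 1 the list had 2 genes higher and 7 lower (19.3% and 16.1% of all genes in that fit), and without any one of the other 5 libraries it had 0 in each direction. Of 27 other class I and class I-like genes, 25 were found in the table and 12 were tested. Of these 12, 0 were higher and 0 lower, beside 2.99% and 1.54% of all tested genes, and the median log2 fold change was 0.05. Without Ythdf2-KO replicate 1, 2 of these 12 rose, H2-T10 and Mr1, and 3 fell, Cd1d1, Hfe and Fcgrt, beside the same 19.3% and 16.1%. Cd1d2, at no more than 0.369 CPM, did not pass the filter with all 6 libraries, was called lower in that fit and is not counted here; these genes were named after their values were seen.

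**Figure D3:**
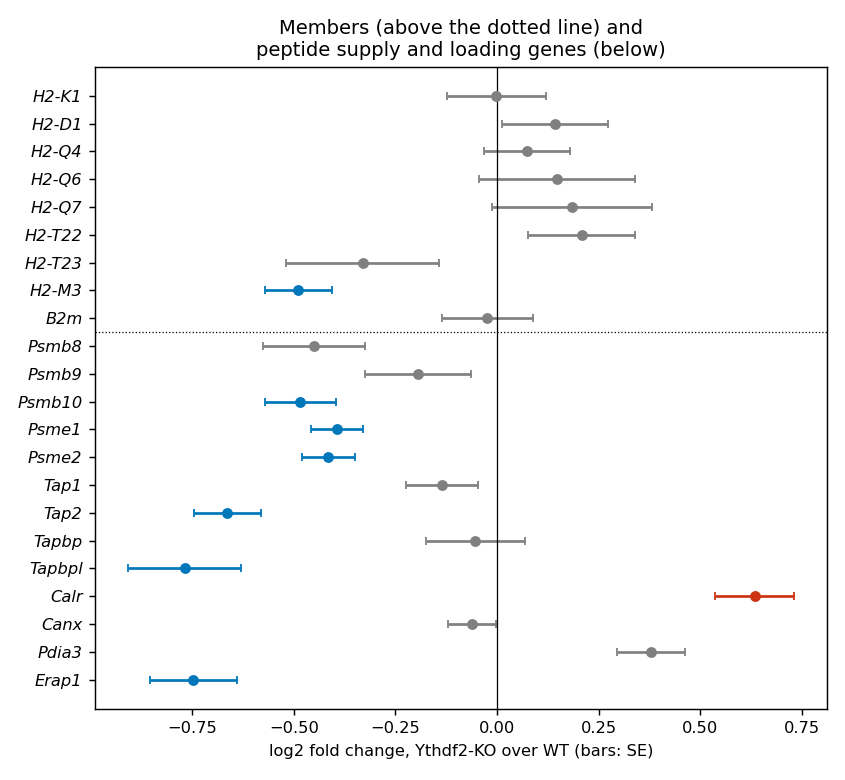
Log2 fold change of Ythdf2-KO over WT with its SE for the 9 members and for the 13 peptide supply and loading genes; blue and red mark genes called lower and higher at an adjusted p under 0.05. H2-M3 is the 1 member called, while 6 loading genes lie between -0.77 and -0.39 and Calr at 0.63.

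The m6A and RIP libraries were deposited as 1 peak list for WT m6A, 1 for Ythdf2-KO m6A and 1 for YTHDF2 RIP. Peaks therefore carry no replicate error and no test, and a peak missing from a list shows only that none was called there. Of the 9 members, 5 had at least 1 peak in the WT m6A list (48.7% of tested genes), H2-K1, H2-D1, H2-Q4, H2-T22 and B2m. These were the 5 members with at least 100 CPM in WT, where 76.9% of tested genes had such a peak. H2-Q6, H2-Q7, H2-T23 and H2-M3, all below 50 CPM, had none in any list, beside 37.9% of tested genes at that level with a WT m6A peak. In the Ythdf2-KO m6A list 4 members had a peak (45.0% of tested genes), all but H2-D1 of the 5. In the YTHDF2 RIP list 4 members had a peak (34.3% of tested genes), all but H2-T22 of the 5.

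The WT m6A list held 14 peaks in members, the Ythdf2-KO m6A list 8 and the RIP list 7. A Ythdf2-KO m6A peak overlapped 7 of the 14 WT m6A peaks, beside 80.3% of all WT m6A peaks, and a WT m6A peak overlapped 7 of the 8 Ythdf2-KO m6A peaks, beside 89.3% of all of them. A RIP peak overlapped 8 of the 14 WT m6A peaks, beside 48.3% of all WT m6A peaks, and all 7 RIP peaks in members met a WT m6A peak, beside 34.2% of all RIP peaks. RIP peaks covered 82.9% of the exonic bases of H2-Q4 and 100% of those of B2m, so such overlap was nearly given there. The H2-Q4 counts also take in a WT m6A peak and a RIP peak that coincide with peaks named for the antisense gene Gm11131. The shares over all peaks take in genes of every level and genes with no m6A peak. Overlap was at least 1 base on the same strand, and each count was the same at an overlap of 50% of the smaller peak. For the member counts both peaks had to be named for the same gene, while the shares over all peaks took a peak of any gene. Each peak's deposited score is the authors' and was read as a p-value.

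**Figure D4:**
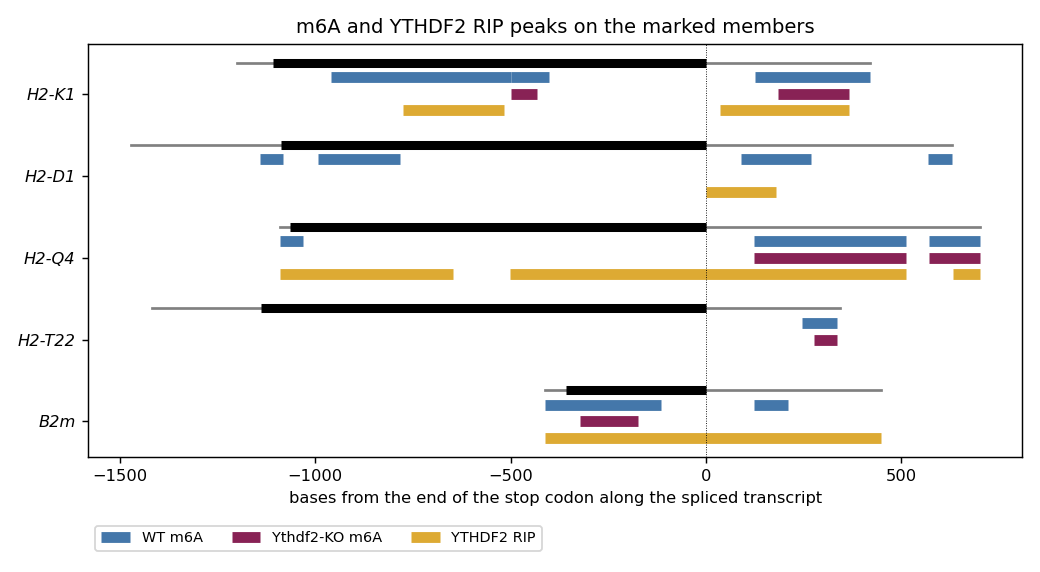
Positions of the peaks along the spliced transcript of the 5 members with a peak, in bases from the end of the stop codon; black marks the coding sequence and grey the untranslated ends. Peaks outside the transcript drawn, 1 WT and 2 Ythdf2-KO m6A peaks of H2-T22, are left out, and the H2-D1 row has no Ythdf2-KO m6A peak.

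H2-K1 had 3 WT m6A peaks. The longest spanned 660 bases (chromosome 17, 33999258 to 33999917) with a deposited score of 1e-129, and 460 of them lay in coding sequence. It held the longer H2-K1 stretch shown above, which a RIP peak also covered, and no Ythdf2-KO m6A peak overlapped it. A second peak (33997463 to 33997702, score 1e-128) had 98 of its 240 bases in coding sequence. The Ythdf2-KO list had a peak of 91 bases inside it with the same score, and 68 of those bases were coding. The third (33996017 to 33996347, score 1e-103) lay in the 3′ untranslated region and was met by a Ythdf2-KO m6A peak (33996107 to 33996287, score 1.3e-94) and a RIP peak. The exonic bases of H2-K1 under m6A peaks were 1231 in the WT list and 272 in the Ythdf2-KO list, counted over exons of any annotated transcript. In the longest coding transcript, the WT peaks held 460, 98 and 295 bases in the order given, and the Ythdf2-KO peaks 68 and 181.

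H2-D1 had 4 WT m6A peaks and no Ythdf2-KO m6A peak. Of the tested genes with a WT m6A peak, 11.6% had none in the Ythdf2-KO list; among the 5 such members H2-D1 was the only one. Its peak with the lowest score was the coding stretch shown above (35263402 to 35263611, score 1e-103). The others lay at the start codon (35263060 to 35263120, score 2e-33) and in the 3′ untranslated region (35266959 to 35267139, score 1.3e-50, and 35267439 to 35267499, score 2e-15). A RIP peak of 181 bases (35266869 to 35267049, score 1e-22) covered 91 bases of the third.

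H2-Q4 had nearly the same m6A peaks in both genotypes, with 1137 exonic bases in the WT list and 1076 in the Ythdf2-KO list. Its main peak in the 3′ untranslated region had the same bounds in both (35384097 to 35384485), with a score listed at 0 in both. Its WT peak over the first exon (35379617 to 35379677, score 1.6e-21) had no Ythdf2-KO counterpart named for H2-Q4, but both m6A lists held a peak there named for the antisense gene Gm11131. RIP peaks covered 2151 of its exonic bases, 82.9% of them, counted over all annotated exons. Of these bases, 538 lay under a RIP peak that begins at the first exon (35379617 to 35380266, score 2.5e-28). The RIP list also held a peak there named for Gm11131 (35379577 to 35380292, score 5e-26). Which gene gave that signal was not tested.

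B2m had 2 WT m6A peaks. The first (122147686 to 122151050, score 1e-183) covered 297 exonic bases, and the Ythdf2-KO list had a peak within it (score 1e-191) over the 149 coding bases shown above. The second, of 90 bases in the 3′ untranslated region (122152757 to 122152846, score 1e-169), had no Ythdf2-KO counterpart. A single RIP peak (score 1e-242) covered all 860 exonic bases of B2m. H2-T22 had 2 WT and 3 Ythdf2-KO m6A peaks with larger deposited scores, from 1.6e-16 to 5.1e-08, and no RIP peak. Its 1 Ythdf2-KO peak without a WT counterpart (36037996 to 36038086, score 5.1e-08) coincided with a peak of the same score named for the antisense gene A930015D03Rik.

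A closer look was taken at peaks with a deposited score at or below 1e-100, a limit chosen after the members' scores were seen. Of 7 such WT m6A peaks in members, 4 were overlapped by a Ythdf2-KO m6A peak, beside 99.5% of 2463 such peaks in all genes. The remaining 3 were the H2-D1 coding peak, the long H2-K1 peak and the B2m 3′ untranslated peak, and they were 3 of 12 such peaks in the whole WT list without a Ythdf2-KO counterpart. The other 9 lay in Hmgn2, Rpl21, Col1a2, Atf5, Ydjc, Ube2l3, Maf and Neat1, the last with 2 peaks. The 2 Neat1 peaks nearly coincide and the Ydjc and Ube2l3 peaks overlap in position, so the 12 are not all separate places. IP signal per library was not analysed here, so whether m6A itself differed at these places was not tested. H2-M3, the 1 member called lower in the counts, had no peak in any of the 3 lists.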

How the data were processed

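The input RNA of 3 WT and 3 Ythdf2-KO libraries was analysed from the whole-number read counts per gene that the authors deposited, with no normalization, and the table held 0 columns of other samples. The submitters' processing notes list the build mm10 and the tools ChIPseeker, HISAT2 and HOMER without saying what each did. Which programs counted reads and called peaks, with which annotation and strand setting, is not given. The authors' peak lists, 1 per group, carry a score per peak, named only so per the file headers; it was read as a p-value from the values of the deposited lists alone.

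Counts were tested in edgeR 4.0.16 (R 4.3.3) with filterByExpr, TMM scaling, no covariate and adjusted p under 0.05 over all 18969 tested genes. The step was checked on counts simulated with like replicates, which cannot show how it acts when a library stands apart. CPM used TMM-scaled totals. Gene models and transcripts came from GENCODE M21, matched by gene ID without version, and promoters from RefSeq. Members and gene lists were chosen with earlier results of these data known. All 9 members were named; of the lists, every gene past 0.05 and Nlrc5, Irf1, Tap1 and Tapbp (1 further gene of this rule is not reported here); for likeness, the 5 nearest other genes by Pearson's r. Alternatives were each library left out, DESeq2 1.42.0, its size factors in edgeR, no filter, a replicate block, other sums, a stricter peak score and a larger overlap.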

Additional observations from a re-analysis of the deposited data

How the results depend on the processing

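Of 90 refitted log2 fold changes of members, 73 kept their direction and their side of the threshold, 7 lost the call (all H2-M3), 4 gained one and 6 changed sign. Sign changes were H2-K1, to 0.0053 without WT replicate 1, 0.13 without Ythdf2-KO replicate 1, 0.0049 with no filter and 0.0021 in DESeq2, and B2m, to 0.00062 without WT replicate 2 and 0.0948 without Ythdf2-KO replicate 1; over the libraries left out H2-K1 ran from -0.072 to 0.13 and B2m from -0.12 to 0.0948. Genes called higher numbered 0 to 3782 and lower 0 to 3144 with 1 library left out: without WT replicates 1, 2 and 3, 53, 0 and 3 were higher and 40, 0 and 2 lower, and without Ythdf2-KO replicates 1, 2 and 3, 3782, 1 and 1 were higher and 3144, 3 and 0 lower. In edgeR without WT replicate 2, 4011 genes had an unadjusted p under 0.05. With no filter 70 genes were higher and 41 lower, with DESeq2 2141 and 1133, and with the replicate block 45 and 26. Members called higher ran from 0 to 4 and members called lower from 0 to 1 over the libraries left out; with no filter and with the replicate block, 0 were lower (H2-M3 adjusted p = 0.0665 and 0.0664), and DESeq2 size factors in edgeR left H2-M3 at 0.0343. Replicates with the same number deviated together with r of 0.05, 0.11 and 0.05, so the numbers were not taken to pair the libraries, although each library was nearest to its own number. With 1 library left out, loading genes called higher ran from 0 to 2 and lower from 0 to 7, regulators from 0 to 8 and 0 to 5, and other class I genes from 0 to 2 and 0 to 4 (with Cd1d2, not tested with all 6 libraries). The heavy chain ratio of 1.05 ran from 0.992 to 1.16 with 1 library left out, and was 1.02 on raw totals and 1.05 with other class I rows added. All 14, 8 and 7 member peaks had a score at or below 1e-05. H2-T23 had 139 to 213 counts a library, the fewest of the members.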
